A study of Mus musculus with 9 samples.

Results

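The tumour suppressor p53 and 9 genes tied to it were followed in cells sorted as melanocyte stem cells, after 2 treatments known to damage DNA. The damage itself was not measured here. The 10 genes were taken by symbol from the deposited table of 55359 genes: Trp53, which encodes p53; its restraints Mdm2, Mdm4 and Ppm1d; and its outputs Ccng1, Trp53inp1, Zmat3, Phlda3, Gtse1 and Psrc1. Each had 1 row in the table and each passed the filter on low counts, so 10 of 10 entered the tests.

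Melanocyte stem cells supply pigment cells to the hair follicle. The cells were FACS-purified from the skin of Dct-H2B-GFP KI/+ mice, in which a green fluorescent histone is tied to the melanin synthesis gene Dct, and all 9 RNA-seq libraries come from animals of that genotype. Of the 3 groups, 1 received ionizing radiation (IR, 5 Gy), 1 received DMBA, an aromatic hydrocarbon that forms bulky DNA adducts, and 1 received vehicle, with 3 libraries in each. The labels used here give neither the time from treatment to sorting, nor the DMBA dose, nor the animals' age, so the IR and DMBA groups may not be matched for dose or time. They also do not say whether the IR animals received vehicle or whether replicates were separate animals. All p-values therefore measure only how far these libraries spread, which may be technical.

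In unstressed cells p53 is made and destroyed continuously: MDM2, a ubiquitin ligase, marks it for degradation, and MDM4 binds it and blocks its activity. Damage kinases release p53 from both, and p53 then switches on a set of target genes that includes Mdm2 itself, which closes a negative feedback loop. Control of p53 is therefore mainly at the level of the protein, which RNA counts do not show. Irradiation of mouse skin is known to deplete melanocyte stem cells and grey the coat.

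Libraries held between 6938406 and 8156905 counts. The 8 melanocyte markers (Dct, Kit, Mitf and others) summed to between 1525 and 2130.5 FPKM in IR, between 1510.4 and 1801 in DMBA and between 1615 and 1656 in vehicle libraries, with no marker at 0. FPKM divides counts by exonic length and library total, so levels of different genes can be compared as far as that length matches the transcripts present. Keratinocyte RNA was present: the 10 basal keratinocyte markers, all detected in every group, summed to 2946, 614 and 1041 FPKM in IR 1, 2 and 3, to between 1974 and 3019 in DMBA and to between 1164 and 1732 in vehicle libraries. The 10 differentiated epidermis markers summed to between 234 and 1631 FPKM in IR, between 1334 and 1977 in DMBA and between 563 and 644 in vehicle libraries. Of the 8 leukocyte markers, Lyz2 was at 0 counts throughout, and the list's sum lay between 21.2 and 54.0 FPKM in IR, 29.6 and 32.7 in DMBA and 26.9 and 50.6 in vehicle libraries. The 6 fibroblast and the 5 endothelial markers summed to at most 1.22 and 1.04 FPKM in any library. In such bulk RNA, fewer cells of a type and less RNA per cell cannot be told apart. Nor can RNA of the 10 genes, or its change after treatment, be assigned to melanocyte stem cells rather than to keratinocytes.

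Promoter sequences are shown because p53 acts by binding DNA. RefSeq windows (GRCm38.p6) of 300 bases, from 250 before to 50 after an annotated start, matched 8 of the 10 genes with 11 windows in all; Trp53inp1 and Zmat3 had none. Of these, 5 windows (45.5%) held a match to the p53 half-site consensus, against 8.36% of all 32851 windows in the table. The 5 matches belonged to 5 genes: Trp53, Mdm2, Ppm1d, Ccng1 and Gtse1. A wider search took 2 cores, each of them CATG or else CAAG or else CTTG or else CTAG, with NNNNNN between them. These cores as a set read the same on both strands, and core pairs can overlap half-site matches. A core pair stood in 2 of the 11 windows (18.2%), in Trp53 and Gtse1, against 7.22% of all windows. Such a match is a stretch of letters, not a shown binding site, and windows that hold none say nothing about p53 elsewhere in the gene. The 5 windows with a match and that of Phlda3, which held none, read as follows, 5′ to 3′ on the gene's strand, with half-site and core matches in capitals.
Mdm2: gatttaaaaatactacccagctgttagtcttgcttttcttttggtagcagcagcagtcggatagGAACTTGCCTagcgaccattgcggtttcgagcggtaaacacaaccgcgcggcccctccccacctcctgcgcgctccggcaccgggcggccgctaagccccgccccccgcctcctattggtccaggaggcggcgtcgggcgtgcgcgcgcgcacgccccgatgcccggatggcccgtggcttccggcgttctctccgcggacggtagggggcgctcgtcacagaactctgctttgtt
Ccng1: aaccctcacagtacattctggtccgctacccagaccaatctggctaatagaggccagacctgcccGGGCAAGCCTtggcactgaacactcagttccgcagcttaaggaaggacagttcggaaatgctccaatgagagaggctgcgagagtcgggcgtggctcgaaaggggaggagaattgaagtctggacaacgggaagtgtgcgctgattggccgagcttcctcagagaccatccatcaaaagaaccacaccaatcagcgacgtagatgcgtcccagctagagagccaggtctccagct
Ppm1d: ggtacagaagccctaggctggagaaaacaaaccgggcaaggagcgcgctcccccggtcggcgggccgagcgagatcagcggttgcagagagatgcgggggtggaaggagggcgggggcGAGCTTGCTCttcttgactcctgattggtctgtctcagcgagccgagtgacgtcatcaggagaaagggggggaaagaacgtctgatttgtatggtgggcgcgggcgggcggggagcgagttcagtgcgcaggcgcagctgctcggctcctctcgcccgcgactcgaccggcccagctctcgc
Trp53: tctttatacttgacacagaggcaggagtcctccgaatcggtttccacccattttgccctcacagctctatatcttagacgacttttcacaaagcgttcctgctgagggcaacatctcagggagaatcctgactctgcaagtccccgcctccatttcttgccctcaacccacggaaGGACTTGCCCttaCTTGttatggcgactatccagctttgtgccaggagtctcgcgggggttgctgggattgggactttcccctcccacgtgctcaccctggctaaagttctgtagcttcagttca
Gtse1: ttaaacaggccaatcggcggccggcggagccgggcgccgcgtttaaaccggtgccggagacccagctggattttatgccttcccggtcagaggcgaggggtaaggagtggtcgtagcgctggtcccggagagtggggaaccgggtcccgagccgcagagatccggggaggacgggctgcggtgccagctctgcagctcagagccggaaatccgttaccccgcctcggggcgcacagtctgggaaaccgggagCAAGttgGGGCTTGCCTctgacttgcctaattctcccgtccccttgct
Phlda3: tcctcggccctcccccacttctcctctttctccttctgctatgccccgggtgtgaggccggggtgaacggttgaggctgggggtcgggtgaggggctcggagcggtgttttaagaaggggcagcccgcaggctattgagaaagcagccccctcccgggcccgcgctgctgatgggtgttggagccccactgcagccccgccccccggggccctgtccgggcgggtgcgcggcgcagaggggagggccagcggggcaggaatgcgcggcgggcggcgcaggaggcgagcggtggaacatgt

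The windows lie at chr10:117710709-117711008 (minus strand) for Mdm2, chr11:40755237-40755536 (minus) for Ccng1, chr11:85311004-85311303 (plus) for Ppm1d, chr11:69580109-69580408 (plus) for Trp53, chr15:85859696-85859995 (plus; 1 of 2 Gtse1 windows) for Gtse1 and chr1:135765835-135766134 (plus) for Phlda3, all in GRCm38.p6. Counted from the annotated start, the half-site matches began 186 bases upstream in Mdm2 (GAACTTGCCT), 185 in Ccng1 (GGGCAAGCCT), 132 in Ppm1d (GAGCTTGCTC) and 75 in Trp53 (GGACTTGCCC). In Gtse1 the match (GGGCTTGCCT) began at base 10 after the start. Coordinates of genes below are those of the deposited table, whose build is not given in the sources used here, and are not to be mixed with these.

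After IR 6 of the 10 genes rose, and with DMBA none passed the test. Calls rest on edgeR's quasi-likelihood test, with p-values adjusted by Benjamini-Hochberg over all 16051 genes tested and a threshold of 0.05. In IR libraries, Mdm2, Ccng1, Trp53inp1, Zmat3, Phlda3 and Gtse1 rose relative to vehicle, and 0 of the 10 fell. Of all tested genes 0.71% were called higher and 0.0249% lower in that comparison. In 9 of the 10 genes, all but Mdm4, every IR library lay above every vehicle library, a pattern of 7.35% of all tested genes, and those 9 also had an unadjusted p under 0.05, as 8.26% of all tested genes did. The median log2 fold change of the 10 genes was 2.17, beside -0.002 over all genes tested. With DMBA, 0 of 10 genes were called (0.0374% of all tested genes were called higher, 0% lower), and the median log2 fold change was 0.06, beside 0.0056 over all genes. DESeq2 and limma also called 0 with DMBA, and 2 genes, Phlda3 and Ccng1, had an unadjusted p under 0.05, beside 6.7% of all tested genes. IR libraries directly against DMBA libraries gave 7 higher genes, the same 6 and Trp53, and 0 lower, where 0.878% of all tested genes were called higher and 0.0997% lower. All 10 genes had an unadjusted p under 0.05 there (8.12% of all tested genes), and in 9, all but Ppm1d, the IR libraries lay above the DMBA libraries (6.92% of all tested genes). The comparisons share libraries and are not independent of each other. The 10 genes were also chosen with earlier results of these data known.

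**Figure D1:**
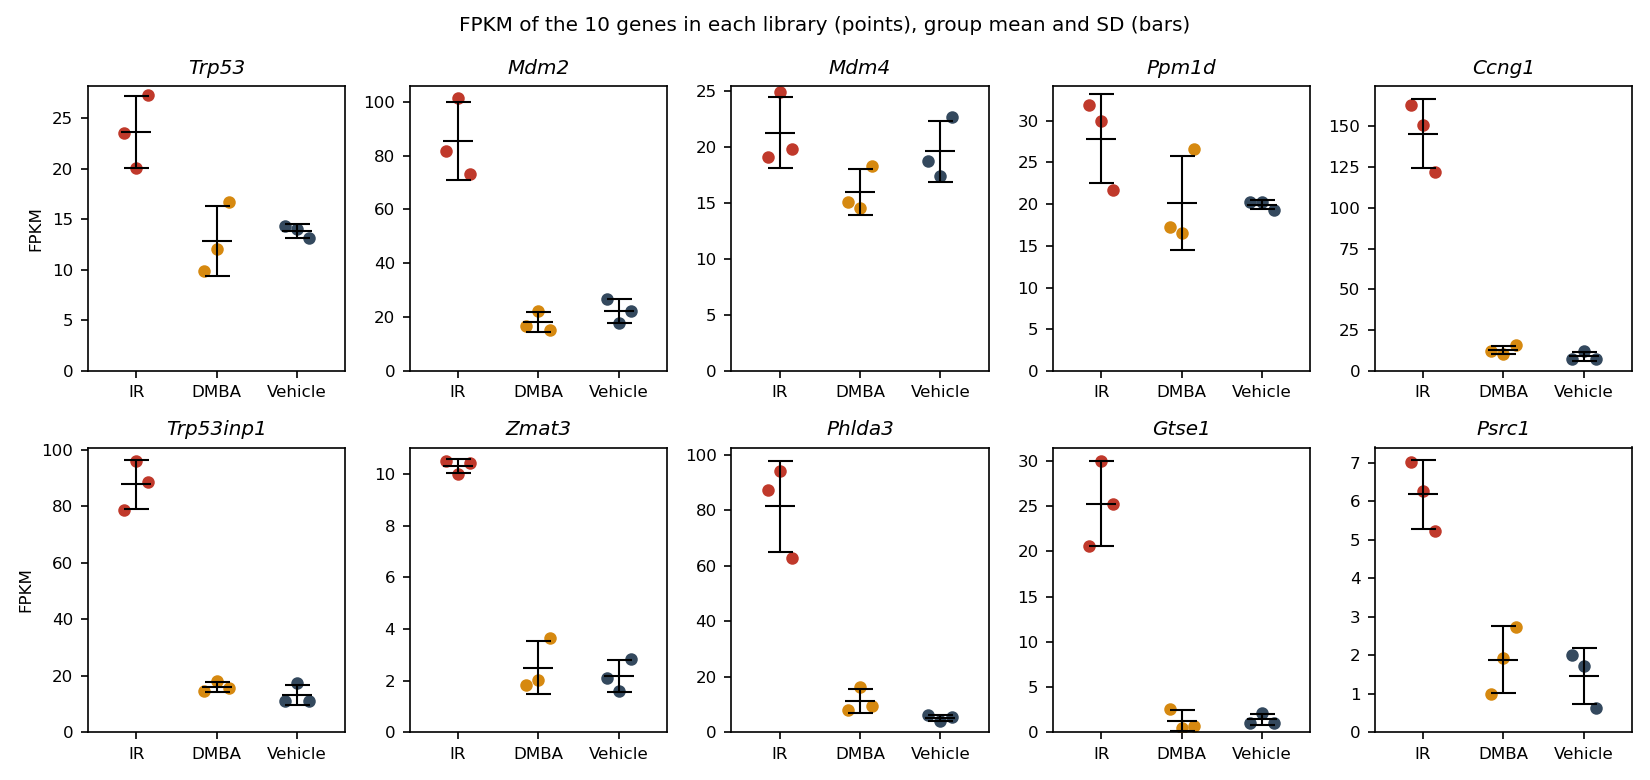
FPKM (linear axis from 0, own scale per gene) of the 10 genes in each library, in the order IR, DMBA, vehicle; points are libraries and bars the group mean and SD (n = 3). In Trp53, Mdm2, Ccng1, Trp53inp1, Zmat3, Phlda3, Gtse1 and Psrc1 the 3 IR points stand apart above the other 6, whereas Mdm4 overlaps across IR and vehicle.

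Trp53 RNA was moderately higher in IR libraries, and its call depended on the comparison. Trp53 (chromosome 11, 69471185 to 69482699) had 23.6, 20.1 and 27.3 FPKM in IR 1, 2 and 3, 9.86, 12.1 and 16.7 FPKM in DMBA libraries and 14.4, 14.03 and 13.1 FPKM in vehicle libraries. All 3 IR libraries were above the other 6, while DMBA and vehicle overlapped. The log2 fold change was 0.78 ± 0.22 (SE) for IR against vehicle, with a 95% interval of 0.33 to 1.23, and the gene was not called (edgeR adjusted p = 0.145). DESeq2 called it in this comparison (adjusted p = 0.0452; over the 21 alternatives tried the adjusted p lay between 0.0452 and 0.467). IR against DMBA gave 0.93 ± 0.22 and edgeR called it (adjusted p = 0.0462), but 16 of 21 alternatives did not, with adjusted p up to 0.290 when IR 3 was left out. The call was also lost without any single one of IR 2, DMBA 1, DMBA 2 or the 3 vehicle libraries, at adjusted p between 0.0564 and 0.252. Wrap53, which lies 104 bases away on the opposite strand, had 70, 100 and 115 counts in IR, 138, 89 and 167 in DMBA and 157, 254 and 76 in vehicle libraries, with overlapping groups (edgeR adjusted p = 0.754 for IR against vehicle). Whether counting used the strand was not stated in the sources used.

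Among the restraints, Mdm2 was the gene that rose. Mdm2 (chromosome 10, 117524780 to 117546663) had 81.8, 101 and 73.1 FPKM in IR, 16.7, 22.3 and 15.3 FPKM in DMBA and 26.8, 17.97 and 22.4 FPKM in vehicle libraries. The lowest IR library was above the highest of the other 6. Its log2 fold change was 1.95 ± 0.20 against vehicle (edgeR adjusted p = 1.53e-05) and 2.28 ± 0.20 against DMBA (edgeR adjusted p = 2.01e-06). DMBA against vehicle gave -0.33, with a 95% interval of -0.74 to 0.08, whose upper end lies below the whole interval of IR against vehicle (1.52 to 2.37).

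Mdm4, the paralog of Mdm2 that binds p53 without degrading it, did not pass the test in any comparison. Mdm4 (chromosome 1, 132887222 to 132958299) had 19.1, 24.9 and 19.9 FPKM in IR, 15.1, 14.5 and 18.3 FPKM in DMBA and 18.8, 17.4 and 22.6 FPKM in vehicle libraries. IR and vehicle overlapped, and each IR library was above each DMBA library. IR against vehicle gave a log2 fold change of 0.13 with a 95% interval of -0.21 to 0.47 (edgeR adjusted p = 0.954), which lies wholly below the interval of Mdm2 (1.52 to 2.37). It turned to -0.0106 without IR 2. IR against DMBA gave 0.46 (0.12 to 0.81) and did not pass (edgeR adjusted p = 0.324). The pseudogene Mdm4-ps held at most 2 counts in a library, and Gm29257, which overlaps Mdm4 on the other strand, at most 9.

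Ppm1d encodes the phosphatase WIP1, which removes activating phosphates from p53 and from the damage kinases and is a p53 target in its own right. Ppm1d (chromosome 11, 85202070 to 85237892) had 31.8, 30 and 21.8 FPKM in IR, 17.3, 16.5 and 26.6 FPKM in DMBA and 20.2, 20.3 and 19.3 FPKM in vehicle libraries. IR 1 and IR 2 were the highest of the 9, while IR 3 was below DMBA 3 and close to vehicle. For IR against vehicle its log2 fold change was 0.49 with a 95% interval of 0.04 to 0.94 and was not called (edgeR adjusted p = 0.557, between 0.408 and 0.825 over 21 alternatives). IR against DMBA gave 0.52 (edgeR adjusted p = 0.484) and DMBA against vehicle -0.03 (-0.49 to 0.42).

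The balance within the loop was set out as ratios inside each library, which do not depend on library scaling. The Mdm2 to Mdm4 ratio of FPKM was 4.28, 4.07 and 3.68 in IR, 1.10, 1.54 and 0.839 in DMBA and 1.42, 1.03 and 0.989 in vehicle libraries. By FPKM, Mdm2 RNA was thus at about the level of Mdm4 RNA in DMBA and vehicle libraries and clearly above it in each IR library. These levels rest on exonic lengths of 5083 bases for Mdm2 and 14798 for Mdm4, which may differ from the transcripts present. In counts Mdm2 was below Mdm4 in each DMBA and vehicle library (1109, 689 and 801 against 2268, 1944 and 2359 in vehicle) and above it in each IR library. Differences between groups in the log2 ratio do not depend on these lengths. The mean log2 ratio was higher by 1.82 in IR than in vehicle and by 1.83 in IR than in DMBA libraries (exact permutation p = 0.1 each, two-sided, the smallest that 3 against 3 libraries allow). DMBA differed from vehicle by -0.01 (exact permutation p = 1). The Mdm2 to Trp53 ratio was 3.47, 5.04 and 2.68 in IR, 1.69, 1.84 and 0.920 in DMBA and 1.86, 1.28 and 1.70 in vehicle libraries. Here too the IR libraries were above the other 6, with IR 2 the highest. The mean log2 ratio was higher by 1.18 in IR than in vehicle (exact permutation p = 0.1), and DMBA differed from vehicle by -0.17 (exact permutation p = 0.6).

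**Figure D2:**
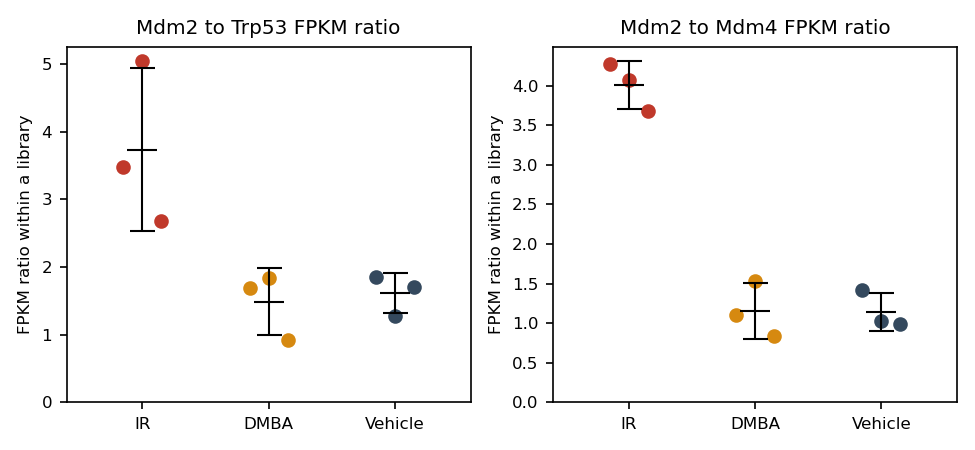
Ratio of Mdm2 to Trp53 FPKM (left) and of Mdm2 to Mdm4 FPKM (right) within each library, for IR, DMBA and vehicle; points are libraries, bars the mean and SD (n = 3), and the axes start at 0. The Mdm2 to Mdm4 ratio lies between 3.68 and 4.28 in IR libraries and at or below 1.54 in the others.

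The largest called changes were among the outputs. Ccng1 encodes cyclin G1, an early p53 target that recruits a phosphatase to MDM2 and so feeds back on p53. Ccng1 (chromosome 11, 40639379 to 40646138) had 163, 151 and 122 FPKM in IR, 12.2, 10.6 and 15.7 FPKM in DMBA and 7.12, 12.3 and 7.24 FPKM in vehicle libraries. The 3 IR libraries were far above the rest, and DMBA overlapped vehicle only through vehicle 2. The log2 fold change was 4.04 ± 0.23 against vehicle (edgeR adjusted p = 8.62e-09) and 3.55 ± 0.23 against DMBA (edgeR adjusted p = 2.21e-08). DMBA against vehicle gave 0.49 (95% interval 0.04 to 0.93; unadjusted p = 0.0356, edgeR adjusted p = 0.726), positive in all 21 alternatives and called in 0 of them.

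Trp53inp1 encodes a nuclear protein that promotes p53 activity and autophagy. Trp53inp1 (chromosome 4, 11156431 to 11174379) had 78.7, 96.1 and 88.6 FPKM in IR, 14.6, 18.1 and 15.7 FPKM in DMBA and 11.2, 17.5 and 11.02 FPKM in vehicle libraries. In IR libraries it was 6.67-fold higher than in vehicle and 5.60-fold higher than in DMBA libraries (edgeR adjusted p = 1.6e-07 and 5.41e-07), whereas DMBA and vehicle overlapped. Vehicle 2 was the highest vehicle library for both this gene and Ccng1.

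Zmat3 encodes a zinc finger protein that binds RNA. Zmat3 (chromosome 3, 32388941 to 32420163) had 10.5, 10 and 10.4 FPKM in IR, 1.82, 2.03 and 3.67 FPKM in DMBA and 2.11, 1.60 and 2.85 FPKM in vehicle libraries. Of the 10 genes it varied least among IR libraries relative to its mean (10.3 ± 0.267 FPKM, mean ± SD, n = 3). On the log2 scale it was higher by 2.25 ± 0.28 against vehicle (edgeR adjusted p = 0.000106) and 2.10 ± 0.27 against DMBA (edgeR adjusted p = 0.000212), and only limma with no filter missed it, at adjusted p = 0.0508 and 0.0618, out of 21 alternatives.

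Phlda3 encodes a small pleckstrin homology protein that competes with the survival kinase AKT for membrane lipids. Phlda3 (chromosome 1, 135693857 to 135696874) had 87.2, 94.2 and 62.8 FPKM in IR, 8.03, 16.4 and 9.61 FPKM in DMBA and 6.37, 4 and 5.38 FPKM in vehicle libraries. It was the one gene of the 10 in which the DMBA libraries also stood wholly above vehicle, a pattern of 8.28% of all tested genes. The log2 fold change was 3.96 ± 0.32 for IR against vehicle (edgeR adjusted p = 5.12e-07), 2.88 ± 0.30 for IR against DMBA (edgeR adjusted p = 1.34e-05) and 1.08 ± 0.30 for DMBA against vehicle. The last of these was not called (unadjusted p = 0.00198, edgeR adjusted p = 0.518); with no count filter it was (adjusted p = 0.0203), in 1 of 21 alternatives. DMBA 2, its highest DMBA library, was also the DMBA library with the largest basal keratinocyte sum, 3019 FPKM. DMBA 3, where Phlda3 was lower, had a sum of 2893 FPKM. IR 2, highest for Phlda3 in the IR group, had the lowest IR sum, 614 FPKM. With the sum as a covariate the DMBA against vehicle log2 fold change was 1.02 (edgeR adjusted p = 0.999), and without DMBA 2 it was 0.69. Each DMBA library was also above each vehicle library in the basal keratinocyte and differentiated epidermis sums. Whether keratinocyte RNA bears on the Phlda3 values was not tested.

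**Figure D3:**
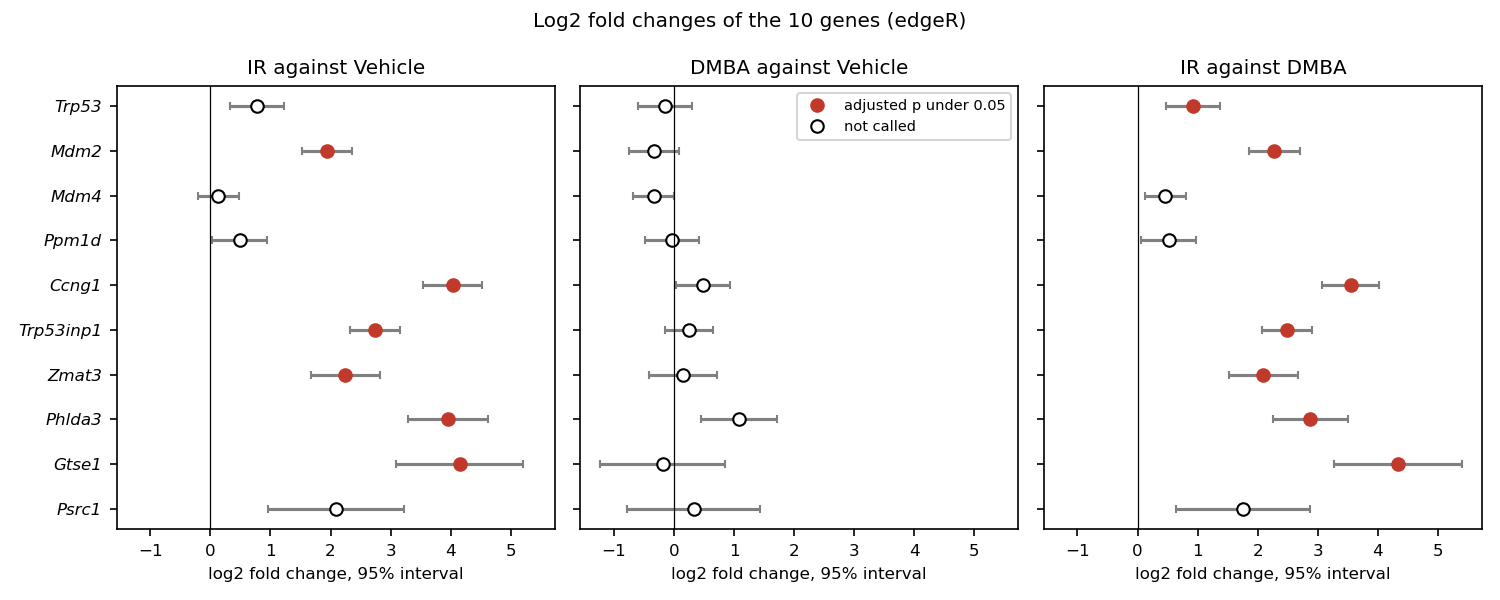
Log2 fold change of each gene with its 95% interval in the 3 comparisons (edgeR); filled points are called at an adjusted p under 0.05. The 6 filled genes of IR against vehicle lie between 1.95 and 4.15, and in DMBA against vehicle all 10 points are open and lie between -0.33 and 1.08.

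Gtse1 and Psrc1 encode microtubule-associated proteins that are also known from dividing cells: human GTSE1 accumulates in G2 and moves p53 out of the nucleus, and PSRC1 acts at the mitotic spindle. Gtse1 (chromosome 15, 85743946 to 85760774) had 20.6, 29.97 and 25.2 FPKM in IR, 2.59, 0.510 and 0.740 FPKM in DMBA and 1.03, 2.18 and 1.09 FPKM in vehicle libraries. These rest on 450, 626 and 489 counts in IR, 55, 11 and 14 in DMBA and 23, 45 and 21 in vehicle libraries. With Zmat3 and Psrc1 it was among the 3 scarcest of the 10 genes in DMBA and vehicle libraries, and of the 10 it had the largest fold change in IR libraries, 17.7-fold over vehicle and 20.2-fold over DMBA (log2 4.15 ± 0.50 and 4.34 ± 0.51; edgeR adjusted p = 9.79e-05 and 5.37e-05). Of the 80 DMBA counts 55 were in DMBA 1.

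Psrc1 (chromosome 3, 108291155 to 108295547) had 7.02, 6.28 and 5.24 FPKM in IR, 1, 1.93 and 2.74 FPKM in DMBA and 2, 1.73 and 0.630 FPKM in vehicle libraries. All 3 IR libraries were above the other 6, but the low counts (between 15 and 55 in vehicle libraries) left a wide interval. Its log2 fold change was 2.09 for IR against vehicle (95% interval 0.96 to 3.21; edgeR adjusted p = 0.103) and 1.76 for IR against DMBA (edgeR adjusted p = 0.188), and neither was called. DESeq2 called both (adjusted p = 0.0107 and 0.0471), and edgeR with no count filter called the first (adjusted p = 0.0412), the others of the 21 alternatives reaching up to 0.330 and 0.498. Gm12522 lies 98 bases from Psrc1 on the opposite strand.

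Of the genes of G2 and mitosis none was called higher after IR. Of 25 listed G2/M genes 22 were tested (Bub1, Ccnb1 and Cdc25c were not), and edgeR called 0 in each of the 3 comparisons. For IR against vehicle 2 were lower and 0 higher by unadjusted p under 0.05, beside 8.26% of all tested genes in either direction. Of the 22 log2 fold changes 16 were negative and 6 positive, and the median was -0.70. The 4 genes with the smallest p, described below, were Mki67, Cenpf, Kif11 and Cenpe. DESeq2 called 0 of 22, and limma 0 of the 15 that passed its filter. IR against DMBA gave an unadjusted p under 0.05 for 3 lower and 0 higher genes (8.12% of all tested genes), a median of -0.86, 1 call by DESeq2 and 0 by limma, and DMBA against vehicle 0 and 0 (6.7% of all tested genes), with 0 calls by DESeq2 or limma. The proliferation marker Mki67 had 4.31, 0.300 and 0.950 FPKM in IR, 8.85, 2.99 and 5.59 FPKM in DMBA and 4.18, 4.06 and 9.97 FPKM in vehicle libraries (edgeR adjusted p = 0.371 for IR against vehicle). IR 1, which overlaps vehicle, holds most of the IR signal, and without IR 1 Mki67 was called lower against vehicle and against DMBA. IR 1 and vehicle 3, each highest for Mki67 in its group, also had the highest basal keratinocyte sums there (2946 and 1732 FPKM). DMBA 1, highest for Mki67 in the DMBA group, had the lowest sum there (1974 FPKM). Whether keratinocyte RNA bears on the Mki67 values was not tested. The kinetochore gene Cenpf had 0.0300, 0.0100 and 0.220 FPKM in IR, 1.11, 0.310 and 1.18 in DMBA and 0.510, 0.0400 and 1.34 in vehicle libraries (edgeR adjusted p = 0.377 for IR against vehicle), and was called lower in IR than in DMBA by DESeq2 and with a replicate block. The motor genes Kif11 and Cenpe had log2 fold changes of -1.20 and -0.97 for IR against vehicle (edgeR adjusted p = 0.715 and 0.728).

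**Figure D4:**
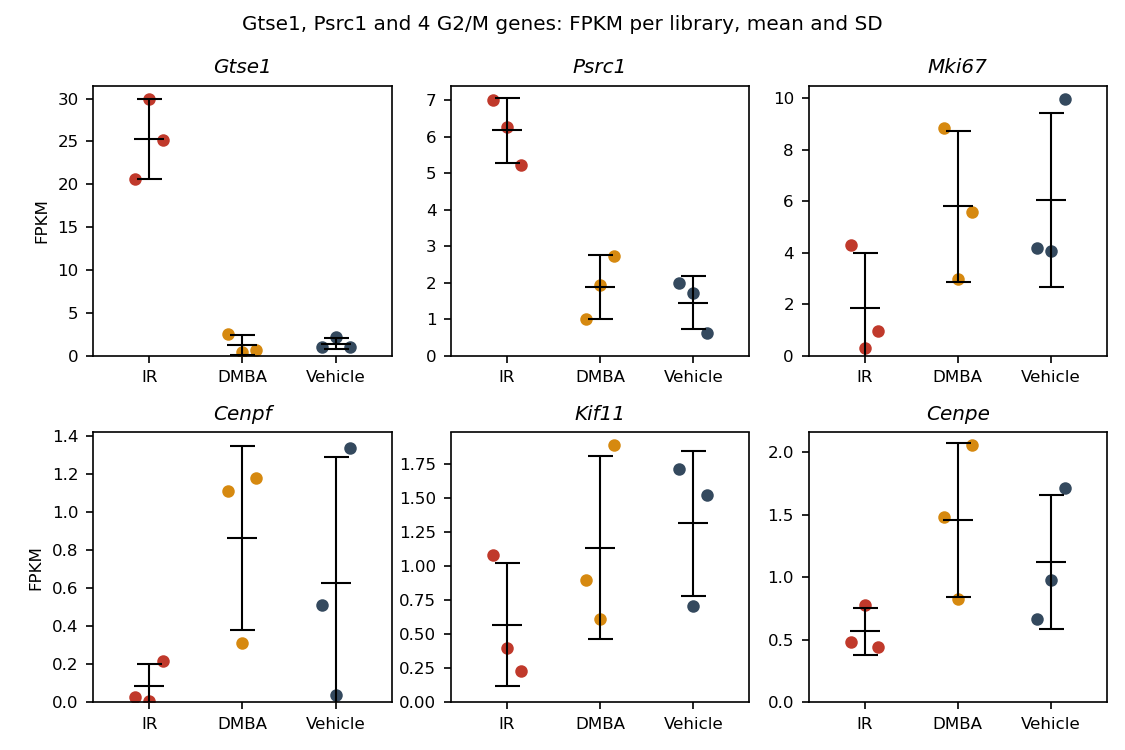
FPKM (linear axis from 0, own scale per gene) of Gtse1, Psrc1 and 4 G2/M genes in IR, DMBA and vehicle libraries; points are libraries and bars the mean and SD (n = 3), cut at 0. The IR points are the highest in Gtse1 and Psrc1, and in Mki67, Cenpf, Kif11 and Cenpe the IR mean is the lowest of the 3 groups. These 4 were picked as those with the smallest p of the G2/M list for IR against vehicle. Of the 22 tested genes of that list 0 were called, with 16 negative and 6 positive log2 fold changes.

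The order of RNA levels among the 10 genes differed by group. In IR libraries Ccng1 was highest (145 ± 21.2 FPKM, mean ± SD, n = 3), followed by Trp53inp1, Mdm2 and Phlda3 at 87.8 ± 8.74, 85.5 ± 14.5 and 81.4 ± 16.5, whose ranges overlap in that order. Then came Ppm1d, Gtse1, Trp53 and Mdm4, between 21.3 and 27.9 FPKM on average and each overlapping the next, and below them Zmat3 and Psrc1 (6.18 ± 0.894). In DMBA libraries Ppm1d, Mdm2, Trp53inp1, Mdm4, Trp53, Ccng1 and Phlda3 followed each other from 20.1 ± 5.60 to 11.3 ± 4.44 FPKM with every neighbour overlapping, well above Zmat3, Psrc1 and Gtse1 (1.28 ± 1.14). In vehicle libraries Mdm2, Ppm1d and Mdm4 led (22.4 ± 4.39, 19.95 ± 0.531 and 19.6 ± 2.71 FPKM) and overlapped. Trp53, which lay below all 3, Trp53inp1, which reached above the lowest Mdm4 value in vehicle 2, and Ccng1 came next, then Phlda3 (5.25 ± 1.19), then Zmat3, Psrc1 and Gtse1. Together the 10 genes took 0.231, 0.258 and 0.215% of all counts in IR 1, 2 and 3, between 0.0585 and 0.0725% in DMBA and between 0.0663 and 0.0706% in vehicle libraries.

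Within the IR group no library carried the rise alone. IR 2 was highest for Mdm2, Trp53inp1, Phlda3 and Gtse1 and had the lowest basal keratinocyte sum (614 FPKM), and IR 1 was highest for Ccng1, Zmat3, Psrc1 and Ppm1d and had the highest sum (2946 FPKM). The same 6 genes were called against vehicle without any one of the 9 libraries and with the basal keratinocyte sum as a covariate. They were also called in the 7 libraries that remained once IR 2 and vehicle 2 were dropped; these correlated least with the rest (mean r of 0.872 and 0.873 across genes).

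Other p53 targets also rose after IR. Of 38 further targets 37 were tested (Lif was not), and after IR 15 rose and 0 fell against vehicle. Of all tested genes 0.71% were called higher and 0.0249% lower. The median log2 fold change of the 37 targets was 1.20, and 32 of 37 were positive. The list was chosen with earlier results of these data known, so these shares are not an independent test. The 4 with the smallest p were Aen, an exonuclease gene (52.5 ± 3.94 FPKM in IR and 3.40 ± 0.255 in vehicle libraries), Cdkn1a, the gene of the cell cycle inhibitor p21 (241 ± 22.6 and 59.5 ± 6.68), Sesn2, a stress gene that restrains growth signalling (54.96 ± 3.36 and 11.6 ± 2.10), and Apaf1, the apoptosome scaffold gene (24.1 ± 2.91 and 8.11 ± 0.217; n = 3 each). Their log2 fold changes were 3.96 ± 0.19, 2.02 ± 0.16, 2.26 ± 0.20 and 1.58 ± 0.17 (edgeR adjusted p between 5.92e-10 and 3.36e-05). The other 11 that rose were Ephx1, Eda2r, Ei24, Plk2, Polk, Tnfrsf10b, Bbc3, Dcxr, Fas, Bax and Ercc5. Of these, Bax, Bbc3, Fas and Tnfrsf10b act in cell death, and Polk and Ercc5 in tolerance and repair of DNA lesions. Their fold changes ran from 2.16 for Ercc5 to 10.9 for Tnfrsf10b, leaving out Eda2r, which had 354, 297 and 258 counts in IR, 0, 0 and 3 in DMBA and 4, 0 and 8 in vehicle libraries. Eda2r passed the filter on low counts only through the IR libraries, so it could enter the tests only as a gene high in IR. The count of 15 was between 10 and 16 with 1 library left out (10 without vehicle 3, 11 without IR 2 or without vehicle 1), and Bax, Bbc3, Fas, Tnfrsf10b, Dcxr and Ercc5 each lost the call in at least 1 of these fits. The count was 5 by limma without a filter, 7 by limma on log2(FPKM + 0.1), 18 with the basal keratinocyte covariate, 19 by DESeq2 and 20 with no count filter. Over all tested genes the calls, higher or lower, numbered 118 in the main fit. In these alternatives they numbered 49, 69, 176, 251 and 236, in the same order.

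With DMBA 0 of the 37 further targets were called by edgeR, DESeq2 or limma, the unadjusted p was under 0.05 for 2 higher and 1 lower gene (6.7% of all tested genes), and the median log2 fold change was 0.12. IR against DMBA gave 15 higher and 0 lower, among them Tap1 and Rps27l, which edgeR did not call against vehicle. Of all tested genes 0.878% were called higher and 0.0997% lower in IR against DMBA. Tap1, a peptide transporter gene of antigen presentation, averaged 34.3 ± 11.4 FPKM in IR, 13.7 ± 0.457 in DMBA and 19.6 ± 0.490 in vehicle libraries (n = 3 each; edgeR adjusted p = 0.000916 against DMBA and 0.0824 against vehicle). For Rps27l, a ribosomal protein paralog gene, these were 0.0407 and 0.137.

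A separate list of p53 regulators, which leaves out the 10 genes, held no gene that passed the test. Of its 25 genes (damage kinases, acetylases, ligases and binding partners) 24 were tested, since Cdkn2a, the gene of the MDM2 inhibitor ARF, held 0 counts in each IR and DMBA library and 2 counts over the vehicle libraries. EdgeR and DESeq2 called 0 of the 24 after IR, and limma 0 of the 23 that passed its filter of 1 FPKM. An unadjusted p under 0.05 was seen for 3 higher and 2 lower genes (8.26% of all tested genes), with a median log2 fold change of -0.01. The 4 with the smallest p were Hipk2, a p53 kinase gene (0.51, 95% interval 0.16 to 0.87), Trp53bp1, a gene of double-strand break repair (-0.55, -0.94 to -0.16), Atr, a damage kinase gene (0.57, 0.08 to 1.07), and Ppp1r13b, which encodes the p53 partner ASPP1 (-0.47, -0.89 to -0.05; edgeR adjusted p between 0.305 and 0.537). With DMBA edgeR, DESeq2 and limma also called 0, with an unadjusted p under 0.05 for 1 higher gene (6.7% of all tested genes). The same 3 tools called 0 for IR against DMBA, where 1 higher and 2 lower genes had an unadjusted p under 0.05 (8.12% of all tested genes). Trp63 stands both in this list and among the 10 basal keratinocyte markers, and had 24.9, 5.26 and 10.5 FPKM in IR, 16.6, 29.2 and 28.5 FPKM in DMBA and 11.9, 13.9 and 18.2 FPKM in vehicle libraries, highest in IR 1 within the IR group as the marker sum was.

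**Figure D5:**
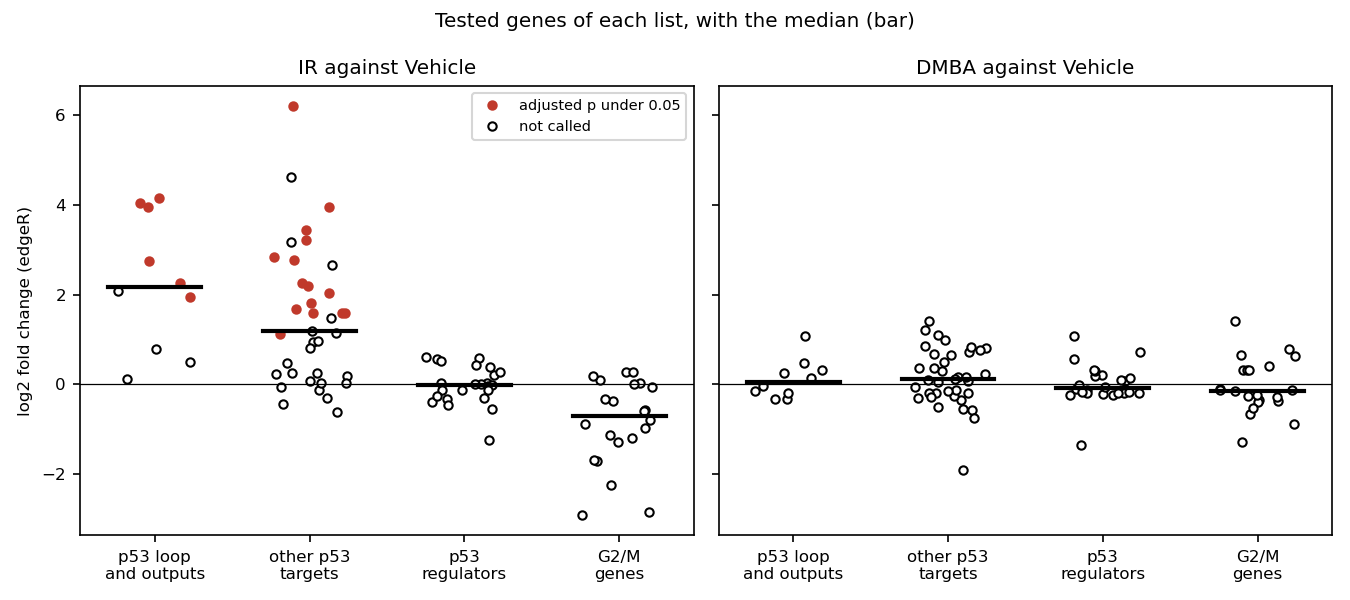
Log2 fold change (edgeR) of every tested gene of 4 lists for IR against vehicle (left) and DMBA against vehicle (right); each point is a gene, filled where called at an adjusted p under 0.05, and the bar is the list's median. After IR the medians are 2.17, 1.20, -0.01 and -0.70 from left to right, and with DMBA every point is open.

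The genes whose profile over the 9 libraries was most like that of Mdm2 were sought among tested genes outside the 10 with a mean FPKM of at least 1. Here likeness was the root mean square difference of log2 CPM (counts scaled to library total), each gene centred on its own mean. Profiles were not scaled, so genes that rise together by different amounts lie far apart. Likeness was not a test of shared regulation. The 5 nearest were Pgpep1 (0.22), Cdkn1a (0.26), Cyba (0.27), Fat1 (0.28) and Apaf1 (0.28). Of the other 9 genes of the loop and its outputs, Zmat3 (0.45) and Trp53inp1 (0.48) were nearest to Mdm2 and Gtse1 (1.28) farthest. Pgpep1, a peptidase gene, had 16.5, 19.6 and 15.6 FPKM in IR, 3.20, 3.89 and 3.93 FPKM in DMBA and 3.71, 3.44 and 3.85 FPKM in vehicle libraries. For Trp53 the 5 nearest were Csnk1g1 (0.18), Mars1 (0.18), Bahcc1 (0.19), Ptpn14 (0.19) and 3110001I22Rik (0.19), and within the loop Ppm1d (0.30) and Mdm4 (0.37). Ptpn14, a phosphatase gene, had 37.3, 37.6 and 34 FPKM in IR, 19.1, 23.4 and 25.2 FPKM in DMBA and 23.2, 23.3 and 21.4 FPKM in vehicle libraries, and was the one of these 5 that edgeR called for IR against vehicle (adjusted p = 0.0247).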

How the data were processed

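Per the labels' protocols, total RNA was column-purified and a stranded SMARTer kit was used. The submitters' processing notes name HTSeq 0.6.1, HISAT2 2.0.1, cutadapt 1.9.1 and bcl2fastq 2.17.1.14, with no role or order; build, annotation and strand setting are not given in the sources. The table the authors deposited holds whole-number counts per gene and library, unnormalized, and FPKM, which the authors scaled by exonic length and library total (recomputed here within 0.005). Per-sample columns left aside numbered 0. Groups and replicate numbers came from sample titles. Genes without a symbol took between 0.121 and 0.175% of counts.

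Counts were tested with edgeR 4.0.16 (R 4.3.3): filterByExpr (16051 genes), TMM scaling, 1 mean per group over all 9 libraries, two-sided quasi-likelihood test, Benjamini-Hochberg adjustment over all tested genes; standard errors are the fold change over the root of F. The biological coefficient of variation was 49.0%. The fit was also run on simulated data, and the outcome is not reported here. Ratios were compared by exact permutation. Alternatives, 21 per gene and comparison, changed the filter, scaling, libraries, replicate block, covariate and test (DESeq2 1.42.0; limma 3.58.1 on log2(FPKM + pseudocount)). Python 3.11.15, pandas 2.3.3, numpy 2.4.6 and matplotlib 3.10.9 handled tables and plots. Promoters are RefSeq's. The 10 genes and the lists were chosen with earlier results of these data known. Besides the 10 genes, the text names genes overlapping them, the 4 smallest p-values of each list after IR with any further called member, and the 5 most like Mdm2 and Trp53; Wrap53, Gm12522, Mdm4-ps, Lyz2, Perp, Trp63 and genes named as not tested were added after their values were seen.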

Additional observations from a re-analysis of the deposited data

How the results depend on the processing

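Each call after IR against vehicle (Mdm2, Ccng1, Trp53inp1, Zmat3, Phlda3 and Gtse1) held in 21 alternatives, except Zmat3 by limma without a filter. The count of called genes among the 10 lay between 5 and 8 in both IR comparisons. Among further p53 targets, IR against vehicle gave between 5 and 20: 5 with limma without a filter, 7 with limma on log2(FPKM + 0.1), between 10 and 16 with 1 library left out, 11 with 7 libraries, 18 with the covariate, 19 by DESeq2 and 20 with no count filter. Over all tested genes the calls for IR against vehicle also moved, from 49 with limma without a filter to 251 by DESeq2. Counts that moved by over 1.5 times elsewhere were these: IR against DMBA gave 6 further targets with limma without a filter, and DMBA against vehicle gave 1 (Perp, higher) with no count filter and with 2 groups only. Perp had 327, 46.7 and 117 FPKM in IR 1, 2 and 3, beside basal keratinocyte sums of 2946, 614 and 1041 FPKM. It had 227, 387 and 336 FPKM in DMBA 1, 2 and 3, beside sums of 1974, 3019 and 2893 FPKM. In vehicle 1, 2 and 3 it had 124, 125 and 183 FPKM, beside sums of 1386, 1164 and 1732 FPKM. Whether keratinocyte RNA bears on the Perp values was not tested. With no count filter DMBA against vehicle also gave 1 of the 10 genes (Phlda3) and 1 regulator (Trp63, higher), and IR against DMBA 1 regulator (Trp63, lower); Trp63 is also a basal keratinocyte marker, and all 10 of those markers had positive log2 fold changes for DMBA against vehicle and negative ones for IR against DMBA (medians 0.82 and -0.73). G2/M genes went to 2 lower (Cenpf and Mki67) with no count filter in both IR comparisons, to 1 (Mki67) with the basal keratinocyte covariate against vehicle, and to 1 (Cenpf) against DMBA by DESeq2 or with the replicate block. Leaving out 1 library each gave between 0 and 1 G2/M genes in both IR comparisons and between 0 and 1 regulators against DMBA, 1 being reached without IR 1.

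Values that changed sign were uncalled. For IR against vehicle, Mdm4 was -0.0869 with 7 libraries and between -0.0106 and 0.25 with 1 library left out. For DMBA against vehicle, Ppm1d was 0.0122 with library totals only and between -0.26 and 0.0744 with 1 library left out; Zmat3 was -0.0279 with 7 libraries and between -0.21 and 0.39; Gtse1 was 0.25 with 7 libraries, 0.21 with the covariate and between -1.24 and 0.24; Psrc1 lay between -0.0289 and 0.63 and Trp53 between -0.36 and 0.0101. With 1 library left out, the log2 Mdm2 to Trp53 ratio lay between -0.35 and 0.15 and the Mdm2 to Mdm4 ratio between -0.24 and 0.20 for DMBA against vehicle. The causes were not tested.

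No pairing of libraries by replicate number was seen: deviations from group means correlated between -0.09 and 0.04 across genes for equal numbers and between -0.05 and 0.10 for others. With 3 libraries per group, each centred on its group mean, this check cannot exclude a pairing. With the replicate block, Trp53 lost its call in IR against DMBA (adjusted p = 0.0610), the ratio differences had exact permutation p = 0.25, the smallest that design gives, and 6 of the 10 genes were called in both IR comparisons. Low counts limit Gtse1 and Psrc1 outside the IR group, and many of the listed G2/M genes in every group.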
